A study of Mus musculus with 4 samples.

Results

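The genes described here carry and tune the Wnt signal: the ligands, their receptors, the secreted proteins that block or boost them, and the core of the pathway inside the cell. They were taken by gene symbol, and 47 of the 15424 listed genes belong to them. They comprise the Wnt, Fzd, Sfrp, Dkk, Rspo and Dvl families, together with Axin1, Axin2, Lrp5, Lrp6, Wif1, Ctnnb1, Apc, Lef1, Tcf7, Tcf7l1, Tcf7l2, Porcn, Rnf43 and Znrf3. A further 12 genes of the same families (Wnt2, Wnt3, Wnt3a, Wnt7a, Wnt8a, Wnt9b, Wnt16, Dkk4, Frzb, Rspo2, Rspo3 and Rspo4) were not analysed here.

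R728T1 cells carrying an shRNA against Taz (shTaz) or against luciferase (shLuc) were grown as subcutaneous tumors in nude mice, a strain without mature T cells, and tumor RNA was sequenced. The labels name small cell lung cancer as the cell type, trace R728T1 to an Rb/P53 mouse model, and call the cells non-SMCs, a term they do not spell out. They state neither the age of the mice nor how many carried the tumors. All tumors come from 1 named cell line. There are 2 samples per group in the labels and 1 FPKM column per group in the table. Each value below is therefore the authors' value for a group, without a spread between replicates, and no difference has a replicate check. The targeted gene Wwtr1, which encodes TAZ, was at 15.1 FPKM in the shTaz column and 23.4 FPKM in the shLuc column, 64.5% of the control value, and its difference, on the log2 scale defined below, was -0.60 as deposited and -1.03 with a trend on GC content removed. Its paralogue Yap1 was at 11.995 FPKM in the shTaz column and 8.59 FPKM in the shLuc column, a difference of 0.44 that was 0.065 with this trend removed and -0.019 with a trend on transcript length removed as well.

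In canonical signaling, a Wnt protein that has been lipid-modified by Porcn leaves the cell and binds a Frizzled receptor (Fzd) together with the co-receptor Lrp5 or Lrp6. Dishevelled proteins (Dvl) then disable a complex built on Axin and Apc, so that beta-catenin, the product of Ctnnb1, is no longer destroyed and joins TCF and LEF factors on DNA. Secreted Frizzled-related proteins (Sfrp) and Wif1 bind Wnts, Dickkopf proteins (Dkk) block the co-receptors, and R-spondins (Rspo) keep the ubiquitin ligases Rnf43 and Znrf3 from removing the receptors. TAZ has been described as a component of the same beta-catenin destruction complex.

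The levels are FPKM, sequenced fragments divided by the length of the transcript and by the size of the library, so that levels can be compared between genes. Differences between the columns are on a log2 scale after 1 is added to each FPKM, shTaz over shLuc, and a size of 1 or more is called 2-fold. On this scale low genes show smaller differences than their plain ratios. Differences were counted over the 11650 genes whose mean of both columns reached 1 FPKM, of which 30 are members. Of these 30, Apc, Axin2, Sfrp1, Sfrp4 and Wnt7b were under 1 FPKM in 1 column and passed through the other. The remaining 17 members stayed below that mean, and 16 of them were under 1 FPKM in both columns.

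Of the 30 members, 4 were 2-fold lower in the shTaz column (Sfrp2, Sfrp4, Wnt6 and Wnt10a) and 1 was 2-fold higher (Fzd7), while 25 differed by less. Sfrp4 entered this count through its shLuc value alone. Over all 11650 genes, 3.25% were 2-fold lower and 3.96% were 2-fold higher; for the 30 members these shares were 13.3% and 3.33%. The median difference was -0.31 over the 30 members and 0.12 over all genes. No test of this contrast is possible with 1 column per group.

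Across the whole table, genes with GC-rich transcripts were lower in the shTaz column and genes with AT-rich transcripts higher. Across the 11084 genes with a known transcript the Spearman correlation of the difference with GC content was -0.56. Genes share the same libraries and are not independent replicates. The median GC content was 54.3% for the 30 members and 50.2% for all genes, so most differences are given below also as the distance from this trend at the gene's own GC content. With the trend removed, 3 members were 2-fold lower and 1 was 2-fold higher, over a background of 3.15% lower and 1.5% higher, and the median of the 30 members was -0.12 against 0.0029 for all genes. The cause of the trend was not tested.

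The start regions of 3 members with 2-fold differences are shown. They are Sfrp2, the lowest member, Wnt6, the ligand with the largest difference, and Fzd7, the higher receptor. Sfrp4 and Wnt10a, the other members with 2-fold differences, had no such region in the sequences at hand. The sequences are from RefSeq on GRCm38.p6, each on the plus strand and written 5′ to 3′. Capitals mark the 50 bases from the start of transcription as RefSeq annotates it, and lower case the 250 bases before it. For Sfrp2 and Wnt6 this start is also that of GENCODE M21, whereas for Fzd7 the GENCODE start lies 277 bases further downstream, outside the window.
Sfrp2, chr3:83766071-83766370: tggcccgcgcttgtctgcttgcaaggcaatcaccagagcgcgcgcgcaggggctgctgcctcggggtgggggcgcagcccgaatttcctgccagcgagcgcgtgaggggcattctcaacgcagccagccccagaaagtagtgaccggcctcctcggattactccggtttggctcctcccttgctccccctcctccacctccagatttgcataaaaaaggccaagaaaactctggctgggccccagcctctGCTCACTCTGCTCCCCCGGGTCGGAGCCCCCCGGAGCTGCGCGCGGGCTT
Wnt6, chr1:74771642-74771941: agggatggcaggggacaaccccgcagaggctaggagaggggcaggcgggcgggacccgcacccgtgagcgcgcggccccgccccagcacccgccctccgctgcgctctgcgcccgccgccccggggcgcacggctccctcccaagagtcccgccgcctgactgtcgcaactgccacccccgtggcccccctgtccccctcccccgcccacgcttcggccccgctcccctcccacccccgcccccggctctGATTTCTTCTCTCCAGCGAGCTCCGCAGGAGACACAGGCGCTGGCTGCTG
Fzd7, chr1:59481897-59482196: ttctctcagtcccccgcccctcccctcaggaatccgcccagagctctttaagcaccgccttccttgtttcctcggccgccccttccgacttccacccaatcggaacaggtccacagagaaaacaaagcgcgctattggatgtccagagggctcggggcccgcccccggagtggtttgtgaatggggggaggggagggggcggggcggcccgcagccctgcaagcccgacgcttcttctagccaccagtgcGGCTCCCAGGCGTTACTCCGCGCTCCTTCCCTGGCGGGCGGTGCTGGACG

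These windows were GC-rich, with 66% GC and 22 CG dinucleotides for Sfrp2, 76.7% and 31 for Wnt6, and 66.7% and 24 for Fzd7. The median of all 32851 RefSeq windows of this length was 52.7% GC with 7 CG dinucleotides, and that of 41 windows of 31 members was 67.3% with 25. Of the 47 members, 31 had a window. Windows on chromosome 18, which holds Apc and Fzd8, were not used among the members. On other chromosomes, Wnt5a, Wnt7b, Wnt10a, Porcn, Sfrp1, Sfrp4, Dkk3, Fzd2, Fzd3, Fzd6, Lrp5, Lrp6, Znrf3 and Axin1 had no window. None of these members was searched for the motifs below. Each window was searched on both strands for GGAATG, the core bound by the TEAD partners of TAZ, and for CTTTGAA and CTTTGAT, forms of the core bound by TCF and LEF factors; none of these motifs contains another. The windows of Sfrp2, Wnt6 and Fzd7 held no match to any of them. GGAATG was found in 2 of the 41 member windows, those of Dvl2 and of 1 start of Wnt5b, and in 14.7% of all windows. A TCF form was found in 3 of the 41, for Dkk1, for 1 start of Wnt11 and for another start of Wnt5b, and in 8.65% of all windows. The shares of all windows are no like background for the members. The member windows are richer in GC, and 7 members have several windows. A match is a run of letters and was not tested as a binding site.

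Among the ligands, Wnt10a was the most abundant in both columns. Wnt10a, a canonical ligand known for its part in hair follicle and tooth development, was at 22.2 FPKM in the shTaz column and 57.7 FPKM in the shLuc column, a difference of -1.34, and 1.64% of all genes lay lower. Wnt6, a neighbouring ligand gene, was at 1.505 FPKM in the shTaz column and 6.22 FPKM in the shLuc column, a difference of -1.53. Both genes were lower, and the ratio of Wnt6 to Wnt10a was 0.0676 in the shTaz column and 0.108 in the shLuc column. With the GC trend removed, Wnt6 stayed 2-fold lower at -1.09, whereas Wnt10a, whose transcript has the highest GC content of the 30 members at 63.8%, was at -0.79 and no longer 2-fold lower.

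**Figure D1:**
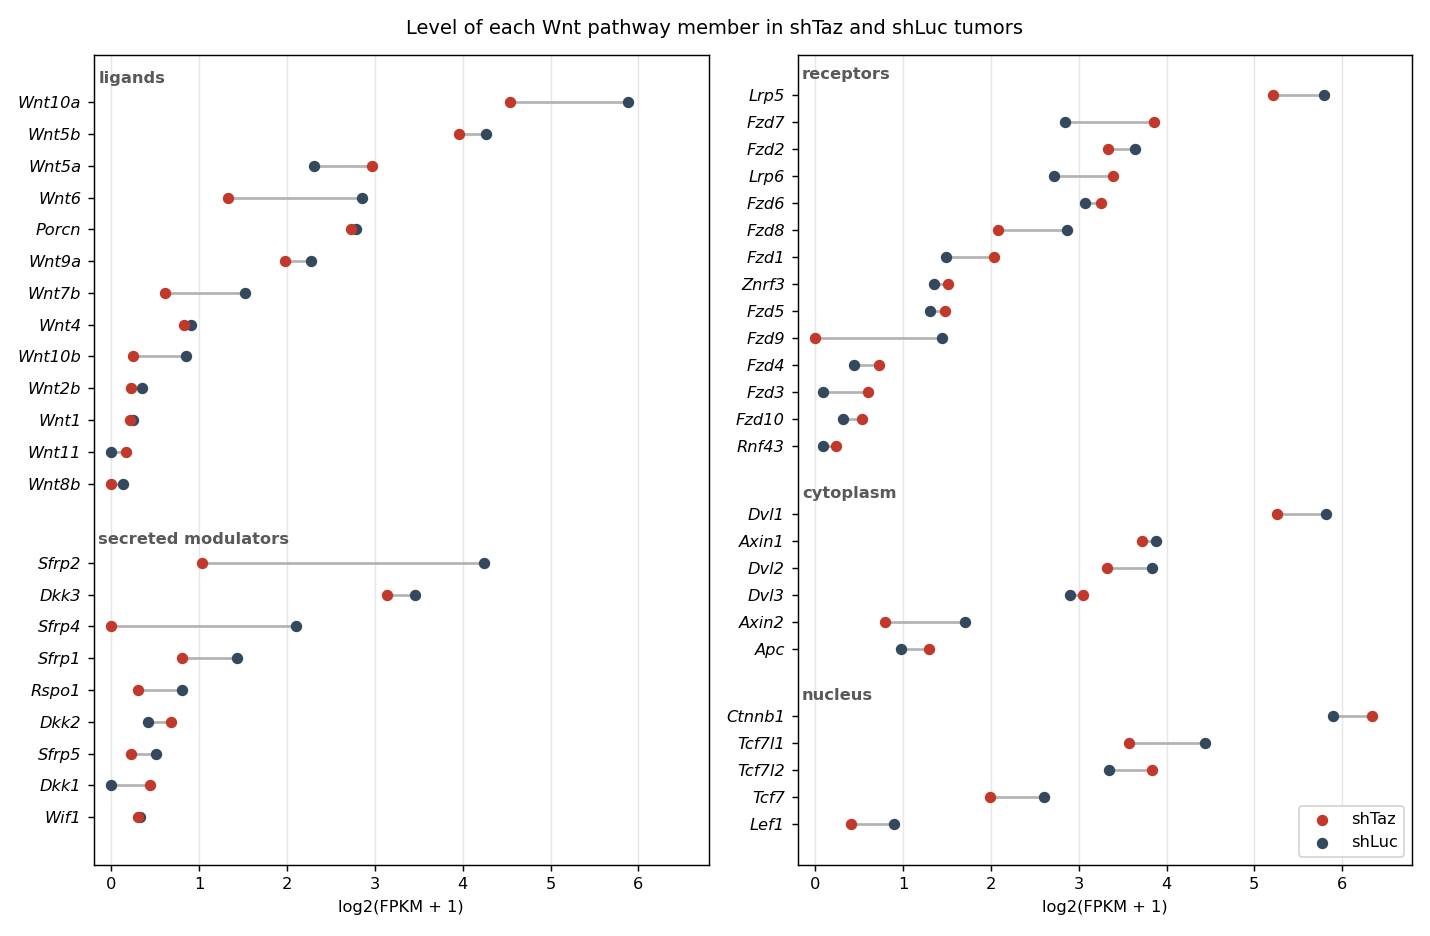
Level of each of the 47 members as log2(FPKM + 1), by role, with shTaz in red and shLuc in dark grey-blue; each point is the authors' value for a group and lines join the values of a gene. The widest gaps are those of Sfrp2, Sfrp4, Wnt6, Fzd9 and Wnt10a, all lower in shTaz, while Fzd7 is the higher member with the widest gap.

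Wnt5b and Wnt5a, closely related ligands best known for signaling without beta-catenin, came after Wnt10a in the shTaz column; in the shLuc column Wnt6 stood between them. Wnt5b was at 14.6 FPKM in the shTaz column and 18.3 FPKM in the shLuc column, and its difference of -0.31 turned to 0.064 with the GC trend removed. Wnt5a was at 6.79 FPKM in the shTaz column and 3.93 FPKM in the shLuc column, a difference of 0.66 that was 0.35 with the trend removed. Of the 7 ligand-role members that passed, Wnt5a was thus the one that was higher in shTaz as deposited. Wnt5b (60.0% GC) and Wnt5a (46.7% GC) differ widely in base composition, and the gap between their differences was 0.97 as deposited and 0.29 with the trend removed.

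The other ligands were lower or scarce. Wnt7b, a canonical ligand of the lung epithelium, was at 0.521 FPKM in the shTaz column and 1.86 FPKM in the shLuc column, a difference of -0.91, or -0.57 with the GC trend removed. Wnt9a was at 2.92 FPKM in the shTaz column and 3.84 FPKM in the shLuc column, a difference of -0.30, or -0.12 with the trend removed. The other members of the family, Wnt1, Wnt2b, Wnt4, Wnt8b, Wnt10b and Wnt11, were under 1 FPKM in both columns. Of these, Wnt10b, a paralogue of Wnt10a, was at 0.181 FPKM in the shTaz column and 0.804 FPKM in the shLuc column. Wnt4 was at 0.777 FPKM in shTaz and 0.878 FPKM in shLuc. Wnt1 was at 0.160 FPKM in shTaz and 0.188 FPKM in shLuc, and Wnt2b at 0.169 FPKM in shTaz and 0.274 FPKM in shLuc. Wnt8b was listed at 0 for shTaz with 0.0952 FPKM in shLuc, whereas Wnt11 had 0.120 FPKM in shTaz and was listed at 0 for shLuc. Porcn, the acyltransferase that prepares Wnts for secretion, was nearly level at 5.62 FPKM in the shTaz column and 5.90 FPKM in the shLuc column, and its difference of -0.060 turned to 0.056 with the GC trend removed.

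Summed over the 12 Wnt ligands with a value, the level was 49.95 FPKM in the shTaz column and 94.1 FPKM in the shLuc column. Most of this gap lay in Wnt10a, which made up 44.5% of the sum in the shTaz column and 61.4% in the shLuc column. Without Wnt10a, the 11 others summed to 27.7 FPKM in the shTaz column and 36.3 FPKM in the shLuc column. The share of Wnt5a was 13.6% in the shTaz column and 4.18% in the shLuc column, and that of Wnt5b was 29.2% in the shTaz column and 19.4% in the shLuc column. As deposited, Wnt5a and Wnt5b therefore made up a larger part of the summed ligand FPKM in the shTaz column than in the shLuc column. Wnt5b itself was lower in shTaz, at 14.6 FPKM against 18.3 FPKM, so its larger share goes with the smaller sum. The shares were not computed with the GC trend removed. The transcripts of Wnt5a and Wnt10a have 46.7% and 63.8% GC.

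**Figure D2:**
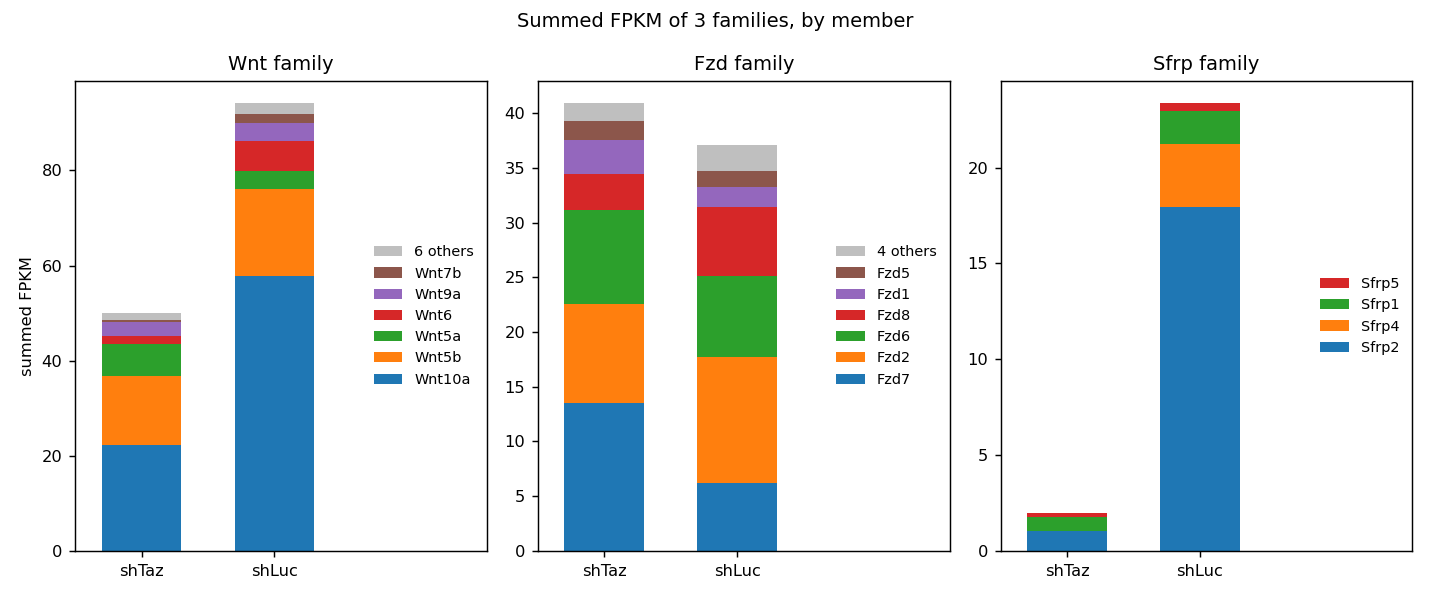
Summed FPKM of the Wnt, Fzd and Sfrp families in the shTaz (left bar) and shLuc (right bar) columns, split by member; each axis starts at 0 and has its own scale. The Wnt sum is 49.95 in shTaz and 94.1 in shLuc and the Sfrp sum 1.96 in shTaz and 23.4 in shLuc, whereas the Fzd sum is 40.9 in shTaz and 37.1 in shLuc with a larger part from Fzd7 in shTaz.

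Wnt6 (Entrez 22420) and Wnt10a (Entrez 22409) lie side by side on the plus strand of chromosome 1, from 74771892 to 74785322 and from 74791516 to 74804179 in GENCODE M21 on mm10, with 6193 bases between them. Their neighbourhood was looked at after their values were seen. Of the 5 nearest named protein-coding genes on each side, 6 had a value and 3 (Cyp27a1, Rnf25 and Ttll4) passed the mean of 1 FPKM; none of these 3 differed 2-fold. Cyp27a1, a sterol hydroxylase gene upstream of Wnt6, was at 7.67 FPKM in the shTaz column and 5.87 FPKM in the shLuc column. Rnf25 was at 11.3 FPKM in the shTaz column and 14.6 FPKM in the shLuc column, a difference of -0.34. Ttll4, Prkag3 and Stk36 differed by -0.12, 0.26 and 0.13, and Fev was listed at 0 for shTaz and had 0.339 FPKM in the shLuc column.

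**Figure D3:**
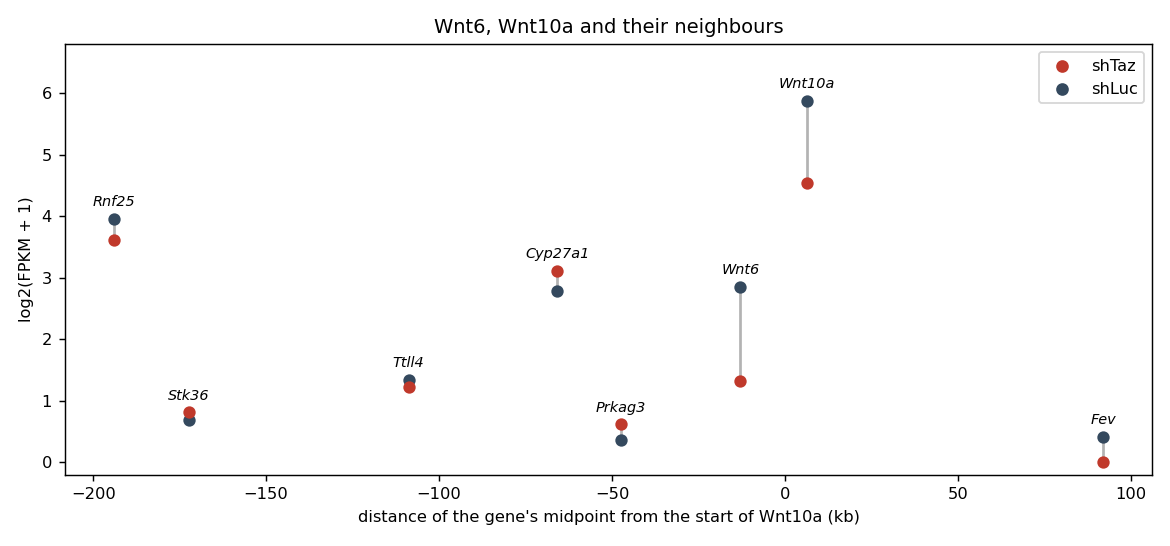
Levels of Wnt6, Wnt10a and the neighbouring genes with a value, as log2(FPKM + 1) in shTaz (red) and shLuc (dark grey-blue), against the distance of each gene's midpoint from the start of Wnt10a in kb. Wnt6 and Wnt10a show the widest gaps, and Cyp27a1, the neighbour with a value closest to Wnt6 after Prkag3, is slightly higher in shTaz.

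The secreted modulators held the widest differences. Sfrp2, a Wnt-binding protein made by mesenchymal cells, was at 1.05 FPKM in the shTaz column and 17.9 FPKM in the shLuc column, or 5.85% of the control value. Its difference was -3.21, with 0.120% of all genes lower, and it was -3.20 with the GC trend removed. The gene (Entrez 20319) spans bases 83766321 to 83774316 of chromosome 3, plus strand.

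Sfrp4, a further member of the family, was listed at 0 for shTaz and had 3.30 FPKM in the shLuc column. It is AT-rich for this family at 44.4% GC, and its difference of -2.10 was -2.51 with the trend removed. The gene (Entrez 20379) spans bases 19623104 to 19632994 of chromosome 13, plus strand. Sfrp1 was at 0.741 FPKM in the shTaz column and 1.69 FPKM in the shLuc column, and Sfrp5 was at 0.166 FPKM in shTaz and 0.420 FPKM in shLuc. All 4 Sfrp genes with a value were lower in the shTaz column, and they summed to 1.96 FPKM there and to 23.4 FPKM in the shLuc column. Without Sfrp2 the other 3 summed to 0.908 FPKM in the shTaz column and 5.41 FPKM in the shLuc column. Sfrp1 and Sfrp4 passed the mean of 1 FPKM through their shLuc values alone; the difference of Sfrp1 was -0.63, or -0.73 with the trend removed.

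The remaining modulators had no common direction. Dkk3, a divergent Dickkopf family member, was the most abundant modulator in the shTaz column, with 7.83 FPKM in the shTaz column and 9.95 FPKM in the shLuc column, a difference of -0.31, or -0.40 with the trend removed. Dkk2 was at 0.599 FPKM in the shTaz column and 0.332 FPKM in the shLuc column, and Dkk1, a classical antagonist of Lrp5 and Lrp6, was at 0.355 FPKM in the shTaz column and listed at 0 in the shLuc column. Rspo1, an R-spondin, was at 0.228 FPKM in the shTaz column and 0.746 FPKM in the shLuc column. Wif1 was at 0.229 FPKM in shTaz and 0.252 FPKM in shLuc. Apart from Dkk3, these genes stayed under 1 FPKM in both columns.

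Most fibroblast markers were lower along with the Sfrp genes. Of 10 markers, 9 passed the mean of 1 FPKM and 8 of these were lower in the shTaz column, with a median difference of -0.71. Of all 11650 genes, 4858 were lower. The markers Dpt, Dcn, Col1a2 and Thy1, 4 of the 9, were 2-fold lower, beside 3.25% of all genes. With the GC trend removed, 3 were 2-fold lower, beside 3.15% of all genes, Thy1 was at -0.92 and the median was -0.75. The markers summed to 1405 FPKM in the shTaz column and 2186 FPKM in the shLuc column. Most of this sum was Col1a1, at 841 FPKM in shTaz and 1375 FPKM in shLuc, a difference of -0.39 with the GC trend removed. Dpt, or dermatopontin, was at 1.16 FPKM in the shTaz column and 18.4 FPKM in the shLuc column, and Dcn, or decorin, was at 1.85 FPKM in shTaz and 13.8 FPKM in shLuc. The smallest difference among the 8 was that of Col3a1, which was nearly level at 371 FPKM in the shTaz column and 372 FPKM in the shLuc column. Pdgfra, the higher marker, was at 13.5 FPKM in shTaz and 8.75 FPKM in shLuc. No marker of the list was at 0, and its part in the Sfrp values was not tested. Lower values were not particular to this list. Of 6 pericyte and smooth muscle markers that passed, 4 were lower and 2 higher, with a median of -0.74. Of 6 endothelial markers that passed, 4 were lower and 2 higher, with a median of -0.091. Of 8 macrophage markers, 4 were lower and 4 higher, with a median of 0.17. In tumor RNA, fewer cells of a type and less RNA per cell cannot be told apart.

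Skin markers were also set beside Wnt10a and Wnt6, since skin and hair follicles make both ligands. Of 10 hair follicle and dermal papilla markers, 8 had a value and 3 (Krt71, Krt25 and Krt27) passed the mean of 1 FPKM, all through their shTaz values alone. The list summed to 14.5 FPKM in the shTaz column and 1.80 FPKM in the shLuc column, and 5 of the 8 were higher and 3 lower in the shTaz column. Krt71, a keratin of the hair root sheath, was at 6.38 FPKM in the shTaz column and listed at 0 for shLuc. Krt27, Krt35 and Msx2 were likewise listed at 0 for shLuc, and the part of these markers in the ligand values was not tested. Of the lower markers, Dlx3 was at 0.256 FPKM in shTaz and 0.931 FPKM in shLuc, Alx4 was at 0.279 FPKM in shTaz and 0.564 FPKM in shLuc, and Corin was listed at 0 for shTaz. The keratinocyte markers summed to 13.2 FPKM in the shTaz column and 10.6 FPKM in the shLuc column, with 4 of 5 higher in the shTaz column. The exception was Krt14, at 3.88 FPKM in the shTaz column and 5.49 FPKM in the shLuc column, and Trp63 was listed at 0 for shLuc.

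Among the receptors, Fzd7 stood above Fzd2 in the shTaz column and below it in the shLuc column. Fzd7 (Entrez 14369), a Frizzled receptor found on stem and tumor cells, was at 13.5 FPKM in the shTaz column and 6.19 FPKM in the shLuc column, a difference of 1.02. The gene spans bases 59482424 to 59486955 of chromosome 1, plus strand. Fzd2 was at 9.06 FPKM in the shTaz column and 11.5 FPKM in the shLuc column, a difference of -0.31, or -0.12 with the GC trend removed. The ratio of Fzd7 to Fzd2 was 1.49 in the shTaz column and 0.538 in the shLuc column. Their transcripts are close in GC content, at 53.9% and 56.6%, and the Fzd7 difference was 1.07 with the GC trend removed. It was short of 2-fold with median-ratio scaling (0.89), after quantile normalization (0.89) and without the length trend (0.78).

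Other Frizzled genes went both ways. Fzd8 was at 3.23 FPKM in the shTaz column and 6.29 FPKM in the shLuc column, a difference of -0.78, or -0.84 with the GC trend removed. Fzd1 was at 3.10 FPKM in the shTaz column and 1.80 FPKM in the shLuc column, a difference of 0.55, or 0.69 with the trend removed. Fzd6 was at 8.58 FPKM in the shTaz column and 7.43 FPKM in the shLuc column, and Fzd5 at 1.78 FPKM in shTaz and 1.48 FPKM in shLuc. Their differences were 0.18 and 0.16, or -0.098 and 0.16 with the trend removed. The sign of Fzd6 turned with the GC trend, the length trend or both removed, and that of Fzd5 after quantile normalization and without the length trend. Fzd9 was listed at 0 for shTaz and had 1.72 FPKM in the shLuc column, under the mean of 1 FPKM. Fzd3, Fzd4 and Fzd10 were under 1 FPKM in both columns, each with the larger value in the shTaz column. Fzd4 was at 0.648 FPKM in shTaz and 0.362 FPKM in shLuc, Fzd3 at 0.513 FPKM in shTaz and 0.0596 FPKM in shLuc, and Fzd10 at 0.445 FPKM in shTaz and 0.248 FPKM in shLuc. The 10 Frizzled genes summed to 40.9 FPKM in the shTaz column and 37.1 FPKM in the shLuc column. With Lrp5, Lrp6, Rnf43 and Znrf3 added, the 14 receptor-role genes summed to 88.4 FPKM in shTaz and 98.9 FPKM in shLuc. The shTaz sum over all 15424 listed genes was 85.3% of the shLuc sum. This share was 110% for the Frizzled genes, 89.4% for the receptor role and 53.1% for the Wnt ligands. None of these sums was computed with the GC trend removed.

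The co-receptors differed in opposite directions. Lrp5 was at 36.0 FPKM in the shTaz column and 54.6 FPKM in the shLuc column, a difference of -0.59, or -0.49 with the GC trend removed. Lrp6 was at 9.47 FPKM in the shTaz column and 5.57 FPKM in the shLuc column, a difference of 0.67, or 0.34 with the trend removed. Lrp5 remained the more abundant in both columns, with a ratio of Lrp6 to Lrp5 of 0.263 in the shTaz column and 0.102 in the shLuc column. Lrp6 has the more AT-rich transcript, at 46.0% GC against 54.7% for Lrp5. The ubiquitin ligase gene Znrf3 was at 1.86 FPKM in the shTaz column and 1.55 FPKM in the shLuc column, a difference of 0.16, or 0.055 with the trend removed, and the sign of its difference turned after quantile normalization, without the length trend and without both trends. Its partner Rnf43 was under 1 FPKM in both columns, at 0.175 FPKM in the shTaz column and 0.0660 FPKM in the shLuc column.

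Inside the cell, no scaffold gene met the 2-fold call on the scale used here as deposited. Axin2, a scaffold of the destruction complex that is also a standard target of beta-catenin, was at 0.736 FPKM in the shTaz column and 2.27 FPKM in the shLuc column. Its difference of -0.91 was -0.83 with the GC trend removed. It met the 2-fold call with a pseudocount of 0.1 (-1.5004), after quantile normalization (-1.06) and without the length trend (-1.13). Axin1, the constitutive scaffold, was at 12.2 FPKM in the shTaz column and 13.7 FPKM in the shLuc column, and its difference turned to 0.036 with the GC trend removed. Apc was at 1.46 FPKM in the shTaz column and 0.962 FPKM in the shLuc column, a difference of 0.32, or -0.087 with the GC trend removed, and its sign turned with the GC trend removed, alone or with the length trend.

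Dvl1 was by far the most abundant Dishevelled gene, at 37.3 FPKM in the shTaz column and 55.5 FPKM in the shLuc column. Dvl2 was at 8.96 FPKM in the shTaz column and 13.3 FPKM in the shLuc column, and Dvl3 at 7.28 FPKM in shTaz and 6.48 FPKM in shLuc. With the GC trend removed the differences were -0.22 for Dvl1, -0.29 for Dvl2 and 0.27 for Dvl3. That of Dvl3 changed sign after quantile normalization and without the length trend.

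In the nucleus, Ctnnb1 was the most abundant member of all in both columns, at 80.0 FPKM in the shTaz column and 58.7 FPKM in the shLuc column. Its difference was 0.44, or 0.30 with the GC trend removed. Tcf7l1, known mainly as a repressor of Wnt targets, was at 10.9 FPKM in the shTaz column and 20.6 FPKM in the shLuc column, a difference of -0.87, or -0.53 with the trend removed. Tcf7l2, a partner of beta-catenin in many tissues, was at 13.3 FPKM in the shTaz column and 9.18 FPKM in the shLuc column, a difference of 0.49, or 0.20 with the trend removed. The ratio of Tcf7l2 to Tcf7l1 was 1.22 in the shTaz column and 0.446 in the shLuc column, so that Tcf7l2 was the more abundant in shTaz and Tcf7l1 in shLuc. Tcf7 was at 2.98 FPKM in the shTaz column and 5.06 FPKM in the shLuc column, a difference of -0.61, or -0.63 with the trend removed, and Lef1 at 0.329 FPKM in shTaz and 0.865 FPKM in shLuc.

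**Figure D4:**
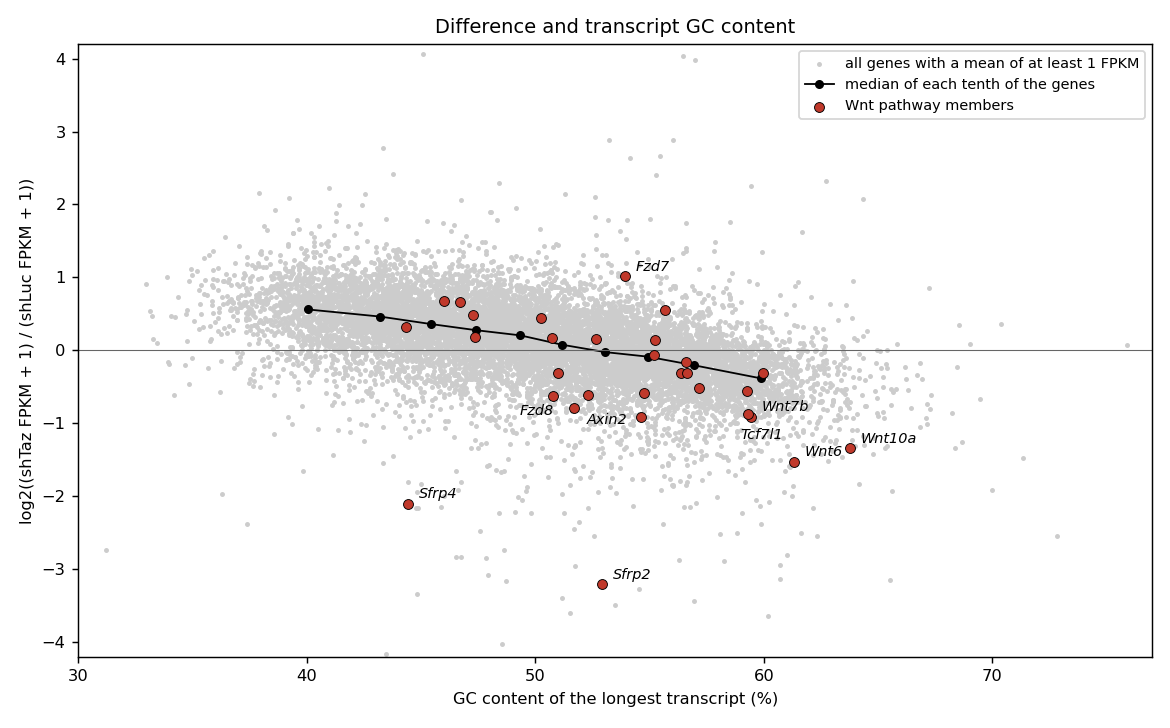
Difference (log2((shTaz FPKM + 1) / (shLuc FPKM + 1))) against the GC content of the longest transcript for 11084 genes (grey; 9 genes beyond 4.2 in size are not drawn), with the median of each of 10 equal groups of genes by GC content (black) and the 30 members (red). The median falls from 0.56 in the group with the lowest GC content to -0.38 in the group with the highest. Sfrp2, Sfrp4, Wnt6 and Fzd7 stand far from it. Wnt10a lies among GC-rich genes and is at -0.79 with the GC trend removed.

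The 30 members covered 44.3% to 63.8% GC, and none of them lay in the 2 lowest of the 10 GC groups. Across the members the Spearman correlation of the difference with GC content was -0.43, a description over 30 genes of the same libraries. Removal of the trend brought 5 of the 7 pairs compared closer, those of Wnt5 and Dvl genes included. The gap between Tcf7l2 and Tcf7l1 was 1.35 as deposited and 0.73 with the trend removed, and that between Lrp6 and Lrp5 was 1.26 as deposited and 0.83 with the trend removed. The gap between Fzd7 and Fzd2 was 1.33 as deposited and 1.19 with the trend removed. The other 2 pairs moved slightly apart: the difference of Axin2 less that of Axin1 was -0.76 as deposited and -0.86 with the trend removed, and that of Wnt6 less that of Wnt10a was -0.19 as deposited and -0.30 with the trend removed. In the 5 pairs brought closer, the gene with the lower GC content had the higher difference, and in the other 2 it had the lower one. Because the trend falls with GC content, its removal shifts the pairs in these directions. The count of 5 is therefore no separate result about the pairs, which were chosen after their values were seen.

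**Figure D5:**
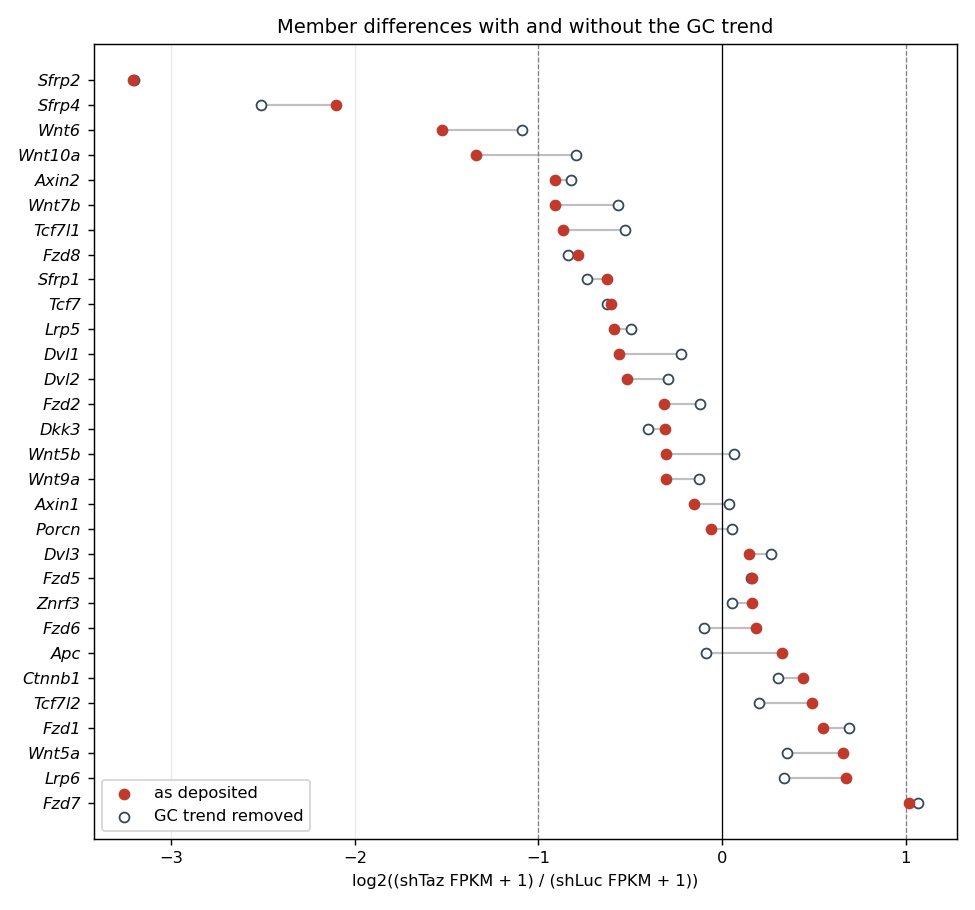
Differences of the 30 members (log2((shTaz FPKM + 1) / (shLuc FPKM + 1))) as deposited (filled) and with the GC trend removed (open), sorted by the deposited value, with dashed lines at -1 and 1. Wnt10a moves inside the lines, from -1.34 to -0.79, while Sfrp2, Sfrp4, Wnt6 and Fzd7 stay outside them.

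The beta-catenin targets that passed had no common direction. Of 21 listed targets, 18 had a value, with 11 lower and 7 higher in the shTaz column, and 9 passed the mean of 1 FPKM. As deposited, none of the 9 was 2-fold lower or higher, beside 3.25% and 3.96% of all genes. Axin2 met the 2-fold call in some other settings, as given above. Of the 9, 4 were lower and 5 higher, with a median of 0.16, beside 0.12 for all genes. The list includes 7 of the 47 members, 3 of them (Axin2, Tcf7 and Znrf3) among the 9; of the 6 other targets that passed, 2 were lower and 4 higher, with a median of 0.41. The targets that report most directly on the pathway were scarce. Notum, a secreted Wnt deacylase, was at 0.326 FPKM in the shTaz column and 0.930 FPKM in the shLuc column, and Nkd1, a feedback inhibitor, was at 0.267 FPKM in shTaz and 0.790 FPKM in shLuc. Nkd2, Bambi, Lgr5, Lef1 and Wif1 were also under 1 FPKM in both columns and lower in the shTaz column, whereas Dkk1 and Rnf43, likewise under 1 FPKM in both, were higher there. Apcdd1, a membrane-bound Wnt inhibitor, differed most among the higher targets, at 6.08 FPKM in the shTaz column and 2.88 FPKM in the shLuc column, a difference of 0.87, or 0.62 with the GC trend removed. Ccnd1, or cyclin D1, was at 94.4 FPKM in the shTaz column and 71.0 FPKM in the shLuc column, and Myc was at 23.8 FPKM in shTaz and 28.2 FPKM in shLuc. These abundant genes respond to many other signals as well.

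Other genes of the pathway were described from 4 lists, of which 70 genes had a value and 53 passed the mean of 1 FPKM. Of these 53, 3 were 2-fold lower and 2 were 2-fold higher, shares of 5.66% and 3.77%, beside 3.25% and 3.96% of all genes. Gpc3 and Tmem198, 2 of the 3 lower genes, passed through their shLuc values alone. The median of the 53 genes was 0.11, beside 0.12 for all genes. The 3 lower genes belong to the secretion and receptor partners. Cthrc1, a secreted protein reported to bind Wnts, was at 13.4 FPKM in the shTaz column and 29.1 FPKM in the shLuc column. Gpc3, or glypican 3, a surface proteoglycan, was at 0.320 FPKM in the shTaz column and 2.94 FPKM in the shLuc column, and Tmem198 was at 0.360 FPKM in shTaz and 2.34 FPKM in shLuc. With the GC trend removed, Cthrc1 and Gpc3 stayed 2-fold lower at -1.40 and -1.83, and Tmem198 was at -0.84.

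The 2 higher genes were Vangl2 and Csnk1g3. Vangl2, a core protein of planar cell polarity, was at 9.53 FPKM in the shTaz column and 3.57 FPKM in the shLuc column, a difference of 1.204, or 1.22 with the GC trend removed. Csnk1g3, a casein kinase 1 gene, was at 5.82 FPKM in the shTaz column and 2.25 FPKM in the shLuc column, a difference of 1.07, or 0.62 with the trend removed. No nuclear cofactor of TCF and beta-catenin differed 2-fold among 14 with a value; the largest differences were those of the corepressor gene Tle4 (0.71, or 0.43 with the trend removed) and the acetyltransferase gene Ep300 (0.58, or 0.50). Wls, the carrier that takes Wnts to the cell surface, is named after its values were seen. It was at 56.2 FPKM in the shTaz column and 28.9 FPKM in the shLuc column, a difference of 0.93, or 0.44 with the trend removed. As deposited, the carrier was higher where the summed ligands were lower. The transcript of Wls has 42.0% GC, and that of Wnt10a, in which most of the ligand gap lay, has 63.8% GC. The ligand sum was not computed with the trend removed.

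Several values rest on shared ground. For 10 of the 30 members, Sfrp2, Axin2, Wnt5a, Wnt7b, Ctnnb1 and Tcf7l1 among them, GENCODE M21 places an exon of another gene on the opposite strand over an exon of the member. Because the strand setting is not given in the sources used here, it is not known whether reads over the overlapping bases were told apart. Such an overlapping gene had a value for Ctnnb1, Dvl1, Dvl2, Tcf7l1 and Wnt7b. It had none for Sfrp2, Axin2, Wnt5a, Fzd5 and Fzd6. The label small cell lung cancer was checked against 10 neuroendocrine markers, of which 5 had a value. Ncam1 was at 43.8 FPKM in the shTaz column and 39.8 FPKM in the shLuc column, Uchl1 at 1.51 FPKM in shTaz and 10.1 FPKM in shLuc, and Syp and Insm1 were under 1 FPKM in both columns, Insm1 being listed at 0 in the shTaz column. Nkx2-1, a lung epithelial factor, was at 0.939 FPKM in shTaz and 2.51 FPKM in shLuc. Apart from Ncam1 and Uchl1, the label thus rests on markers near or under 1 FPKM in the shTaz column. Of 9 skeletal muscle markers, 7 had a value and all 7 were higher in the shTaz column. Their sum was 35.2 FPKM in shTaz against 3.34 FPKM in the shLuc column. The 5 that passed the mean of 1 FPKM were 2-fold higher, beside 3.96% of all genes. Of these, Acta1, Ckm, Mylpf and Des passed through their shTaz values alone. Acta1, at 14.9 FPKM in shTaz, was listed at 0 for shLuc. The part of host tissue in the Wnt values was not tested.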

How the data were processed

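The authors deposited FPKM values for 15424 genes in 1 column per group, each headed by a label that both samples of the group carry; no source says if a column averages both samples, pools them or holds one. Trim Galore, TopHat and the mm10 build are named, per the submitters' processing notes; versions, the FPKM program and the annotation are not given in the sources used here. The table holds no gene at 0 in both. Sequencing depth is unknown: the best step of whole reads placed 23.4% of 1715 low shTaz values and 23.3% of 1935 low shLuc values within 0.1 of a step, against 20% by chance for a preset step. No interval is therefore given.

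Differences were computed with a pseudocount of 1 for genes whose mean reached 1 FPKM, without further scaling and without a test. Transcript GC content and length are from the longest GENCODE M21 transcript and covered 95.1% of these genes; trends were removed by lowess (statsmodels 0.14.6, span 0.3, tested on simulated data). Alternatives were median-ratio scaling or quantile normalization, a pseudocount of 0.1, a mean of 5 FPKM or no minimum, and the GC trend, the length trend or both removed. Members were taken by symbol, all are given by role, and those with 2-fold differences are described first; of the other pathway lists, 2-fold members or else the 2 that differed most are named, and the cell type markers and further genes in the text were picked with their values known. The members and lists were chosen with earlier results of these data known.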

Additional observations from a re-analysis of the deposited data

How the results depend on the processing

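The values rest on 1 column per group of unknown depth, so leaving out a sample could not be run, and low FPKM values carry an error that is not known. No paired analysis was possible because the table has 1 column per group. In the 5 alternatives that can turn a sign (both scalings and the 3 trend removals), 8 of the 30 members changed sign in at least 1, as given beside their values, and 22 did not; the filters and the pseudocount cannot turn one. The median of all genes, 0.12 as deposited, was 3.4e-05 with median-ratio scaling, 0.022 after quantile normalization, 0.0029 without the GC trend and -0.0031 without the length trend; relative to it the median of the members was -0.42 as deposited, and it ranged from -0.48 (pseudocount of 0.1) to -0.13 (GC trend removed).

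The count of 2-fold lower members, 4 as deposited, was 7 with a pseudocount of 0.1 or without the length trend, and 2 with a minimum mean of 5 FPKM. In these settings 4.70%, 3.51% and 2.94% of all genes were lower. It was 6 after quantile normalization and 5 of 47 with no filter, beside 3.91% and 2.98% of all genes. The count was 4 with median-ratio scaling (4.23% of all genes) and 3 with the GC trend or both trends removed (3.15% and 2.72%). The count of 2-fold higher members was 0 with median-ratio scaling, after quantile normalization and without the length trend. There Fzd7 was short of the call, and 2.66%, 2.52% and 2.68% of all genes were higher. Axin2 and Wnt7b met the 2-fold lower call with a pseudocount of 0.1 (-1.5004 and -1.66), after quantile normalization (-1.06 and -1.03) and without the length trend (-1.13 and -1.08); Sfrp1 met it with a pseudocount of 0.1 (-1.09) and Fzd8 without the length trend (-1.07). In the order pseudocount of 0.1, no filter, minimum mean of 5 FPKM, median-ratio scaling, quantile normalization, GC trend, length trend and both trends removed, the member median was -0.34, -0.13, -0.23, -0.43, -0.44, -0.12, -0.47 and -0.16. In the same order the median of the target list was 0.24, -0.18, 0.41, 0.078, -0.014, 0.0027, -0.13 and -0.084, and that of the other pathway lists was 0.12, -0.0099, -0.0099, -0.015, 0.046, 0.055, -0.13 and -0.012; the sign of both lists therefore depends on the setting. Apart from the fewer genes tested with a stricter filter, the cause was not tested.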
